A study of Mus musculus with 2 samples.

Results

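miR-124, miR-9 and miR-128 are microRNAs (miRNAs) best known from the brain, and their levels were examined here in J1 mouse embryonic stem cells (mESCs) after inhibition of MEK. Members were all sequenced tags, that is distinct read sequences, that matched perfectly over their whole length a hairpin of miR-124 (Mir124a-1, Mir124a-2, Mir124a-3), miR-9 (Mir9-1, Mir9-2, Mir9-3) or miR-128 (Mir128-1, Mir128-2). These were 8 of 1174 miRNA hairpins with a name in GENCODE M21, and they gave 63 tags and 7 mature arms. J1 is an established mESC line, grown without feeders on gelatin in knockout serum replacement medium with LIF (1000 U/mL), the cytokine that keeps mESCs undifferentiated. The treated cells received PD0325901 (PD), which inhibits MEK and thereby the activation of ERK1/2, at 1 μM for 24 h, and the control cells received the solvent DMSO. For each treatment, the RNA of 3 independent experiments was pooled into 1 small RNA library, so there were no replicates, and no difference below could be set against the variation between cultures.

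A miRNA is cut from a hairpin precursor by Drosha and then by Dicer, which leaves a short duplex of a 5p and a 3p arm. Usually one arm is kept by an Argonaute protein and pairs with target mRNAs, mainly through its bases 2 to 8, the seed. miR-124 accumulates as neurons differentiate and represses many nonneuronal mRNAs. miR-9 acts in neural progenitors and during their differentiation and is unusual in that both of its arms have been studied as functional miRNAs. miR-128 is abundant in the brain but is also made in other tissues, and its hairpins lie within protein-coding genes.

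On the GRCm38 build, the hairpin Mir124a-1 lies at chr14:64590657-64590741 on the plus strand, entirely within an exon of the noncoding host gene Mir124a-1hg. Mir124a-2 lies at chr3:17795662-17795770 on the plus strand within Mir124-2hg, with 27 of its 109 nt in an annotated exon. Mir124a-3 lies at chr2:180894040-180894107 on the plus strand, and only 3 nt of it overlap the noncoding gene Gm27032. Mir9-1 is at chr3:88215598-88215686 (plus strand) in an intron of the noncoding gene Gm3764, Mir9-2 at chr13:83738814-83738885 (plus strand) in an exon of C130071C03Rik, and Mir9-3 at chr7:79505264-79505353 (plus strand) in an intron of Mir9-3hg. Mir128-1 occupies chr1:128202361-128202430 on the plus strand in an intron of R3hdm1, and Mir128-2 occupies chr9:112118636-112118711 on the minus strand in an intron of Arpp21.

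The mature sequences of miR-9 and miR-128 from RefSeq (GRCm38.p6) are shown because they show which copies can be told apart. Counting took the most frequent tag of each arm as its mature miRNA, and this tag is added where it differed. Capitals mark the seed, bases 2 to 8 from the 5′ end.
miR-9-5p: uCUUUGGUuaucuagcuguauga
miR-9-3p: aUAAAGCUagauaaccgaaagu
miR-9-3p, most frequent tag: uAAAGCUAgauaaccgaaagua
miR-128-3p: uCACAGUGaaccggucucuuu
miR-128-1-5p: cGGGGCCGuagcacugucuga
miR-128-2-5p: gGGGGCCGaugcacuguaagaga
The 3 copies of miR-9 have the same arms, and both copies of miR-128 share one 3p arm. The 5p arms of miR-128-1 and miR-128-2 differ, but both hold the same seed. For miR-9-3p, the most frequent tag in these cells began 1 base downstream of the RefSeq sequence, which shifts the seed by 1 base. For the other arms of miR-9 and miR-128, the most frequent tag was identical to RefSeq.

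Clean reads numbered 18870345 in the control and 20944808 under PD, and each miRNA's reads were scaled to them in RPM, the usual per-million unit. A count of 3 reads, the limit that a count of 0 allows, corresponded to 0.159 and 0.143 RPM. Detection required 1 RPM or more in 1 of the libraries or both, which 499 mature miRNAs met. The share of reads with 20 to 24 nt, the size of most miRNAs, was 63.0% in the control and 52.0% under PD, and that of reads matching miRNA hairpins was 11.6% and 10.1%. The choice of denominator therefore mattered: the median fold change (PD over control) of the 499 was 0.888 per clean read, 1.02 per miRNA-matching read and 1.08 per clean read of 20 to 24 nt. The hairpins from miR-290 to miR-295, which mark mESCs, summed to 33348 RPM without and 28644 RPM with PD. By comparison, the hairpins of miR-199 and miR-214, markers of fibroblasts, summed to 92.6 and 61.9 RPM, those of the blood cell miRNAs miR-142, miR-150 and miR-223 to 31.9 and 26.7 RPM, the muscle miRNA miR-206 to 3.13 and 1.19 RPM, and the let-7 hairpins, which rise in differentiated cells, to 9927 and 9402 RPM.

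The 3 families differed widely in RPM in the stem cells. How far RPM gives the relative amounts of different miRNAs was not tested. miR-128-3p had 18425 control reads (976 RPM, exact Poisson 95% interval 962 to 991) and 18105 PD reads (864 RPM, 852 to 877), which placed it 26th and 28th among the 499 detected miRNAs. miR-124-3p had 4815 control reads (255 RPM, 248 to 262) and 9885 PD reads (472 RPM, 463 to 481), and its rank went from 60th to 41st. miR-9-5p, the main arm of miR-9 here, was far lower, with 328 reads (17.4 RPM, 15.6 to 19.4) and 287 reads (13.7 RPM, 12.2 to 15.4). The order of the 3 was the same in both libraries, and the counting intervals of neighbours in that order did not overlap. In RNA from whole cultures, more cells that hold a miRNA and more of it per cell cannot be told apart. In terms of all reads that matched miRNAs, miR-128 took 0.845% and 0.858%, miR-124 took 0.223% and 0.472%, and miR-9 took 0.0181% and 0.0172% in the control and the PD library. These reads, RPM values, ranks and shares count perfect matches only. With tags that carry added bases at the 3′ end, miR-124-3p had 8398 control reads and 14471 PD reads. miR-128-3p then had 19701 and 19372 reads, and miR-9-5p had 345 and 311.

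**Figure D1:**
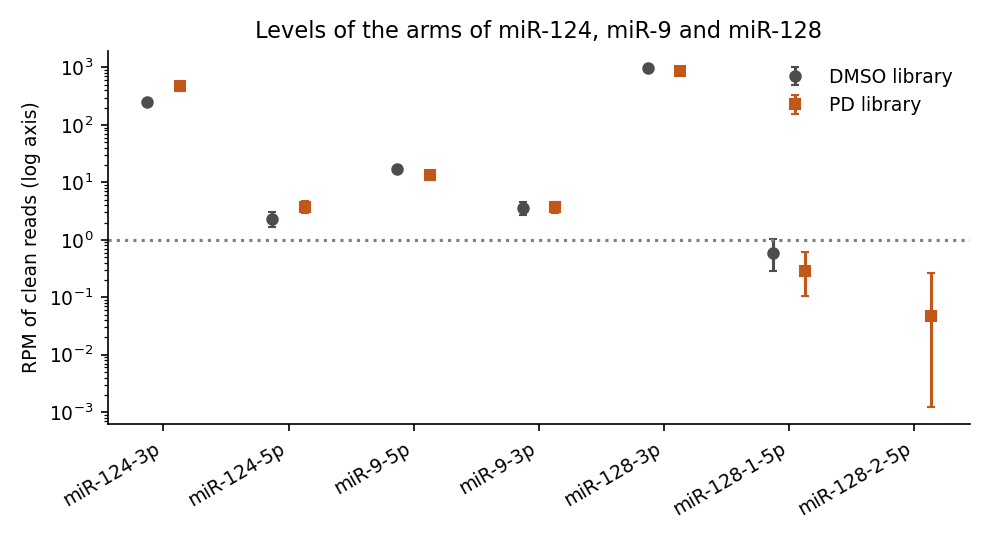
RPM of clean reads (log axis) of each arm in the DMSO (circles) and PD (squares) libraries, 1 library each, with exact Poisson 95% intervals of the counts, and a dotted line at 1 RPM, the detection limit used. Only miR-124-3p and miR-124-5p were 1.5-fold or more higher in the PD library among the arms above the line, and miR-128-2-5p has no point for DMSO because it had 0 reads.

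The minor arms took few of the reads of miR-124 and miR-128, and more of those of miR-9. miR-124-5p had 43 reads in the control and 78 in the PD library, and the 3p arm took 99.1% (Wilson 95% interval 98.8 to 99.3) and 99.2% (99.0 to 99.4) of the reads of both arms. miR-128-1-5p had 11 and 6 reads, below the detection limit. miR-128-2-5p had 0 of 18870345 reads in the control, which allows up to 0.159 RPM, and 1 read in the PD library. The 3p share of miR-128 was thus 99.94% in the control and 99.96% in the PD library. miR-9-3p had 67 and 77 reads, and it took 17.0% (13.6 to 20.98) of the reads of both miR-9 arms in the control and 21.2% (17.3 to 25.6) in the PD library. In none of the 3 families did Fisher's exact test find a difference in the balance of the arms between the libraries (adjusted p = 0.56, 0.49 and 0.56 for miR-124, miR-9 and miR-128, over 3 tests). The ratio of the 3p to the 5p fold change was 1.13 (95% interval 0.779 to 1.64) for miR-124 and 1.31 (0.913 to 1.89) for miR-9, so that shifts of this size were not excluded at this depth. These values count perfect matches only. With tags that carry added bases at the 3′ end, miR-124-3p had 8398 and 14471 reads and miR-124-5p had 44 and 80. Their fold changes were then 1.55 and 1.64, and the balance of the arms was not tested with such tags.

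To see how MEK inhibition bore on these miRNAs, the reads of each arm were compared between the 2 libraries. Both arms of miR-124 were higher in the PD library, by similar factors. miR-124-3p rose 1.85-fold (exact 95% interval 1.79 to 1.91, adjusted p = 4.02e-282 from a 2-sided exact binomial test of the reads). miR-124-5p was 1.63 times the control level (1.11 to 2.43, exact binomial test, adjusted p = 0.0268). The criterion of 1.5-fold or greater was passed upwards by 30 of the 499 detected miRNAs (6.01%), and 2 of the 5 detected arms here were among them. No detected arm was lowered 1.5-fold, while 69 of the 499 (13.8%) were. Per miRNA-matching read the 499 split into 48 raised and 30 lowered, and per clean read of 20 to 24 nt into 59 and 23. With an adjusted p under 0.05 also required, both miR-124 arms were called, beside 3.61% of the 499 raised and 11.2% lowered. The call of miR-124-5p was lost when miRNAs below the detection limit were tested too (adjusted p = 0.060 in the exact test). miR-124-3p had the 13th highest fold change of the 499, and the highest among the 103 miRNAs that reached 100 RPM in 1 of the libraries or both. Both ranks count perfect matches only, for every miRNA. The test covers the sampling of reads in these 2 libraries and not the conditions. When a biological coefficient of variation (BCV) of 0.2 was assumed, the exact test of edgeR no longer called miR-124-3p (adjusted p = 0.80), whereas with 0.1 it did (adjusted p = 9.38e-04), and miR-124-5p was called with neither (adjusted p = 1 and 0.24 from that exact test).

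The 3 detected arms of miR-9 and miR-128 did not pass 1.5-fold when all tags of an arm were counted per clean read, and their direction depended on the denominator or the tags counted. miR-128-3p was at 0.885 of the control level in RPM of clean reads (0.867 to 0.904, exact binomial test, adjusted p = 2.69e-30), but at 1.02 per miRNA-matching read (exact binomial test, adjusted p = 0.27) and at 1.07 per clean read of 20 to 24 nt. The last value was itself called, in the opposite direction (exact binomial test, adjusted p = 1.70e-10). Its fold change per clean read was close to the median of all detected miRNAs, and 246 of the 499 had a lower one. miR-9-5p was at 0.788 (0.670 to 0.926, exact binomial test, adjusted p = 0.0102) with clean reads, at 0.904 and 0.955 with the other 2 denominators, neither of which kept the call, and at 1.01 when only tags identical to the mature miRNA were counted. For miR-9-3p the fold change was 1.04 (0.737 to 1.46, exact binomial test, adjusted p = 0.93), and a difference was not detectable at this depth. With only identical tags it was 1.52, also without a call (adjusted p = 0.16 in the exact test).

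**Figure D2:**
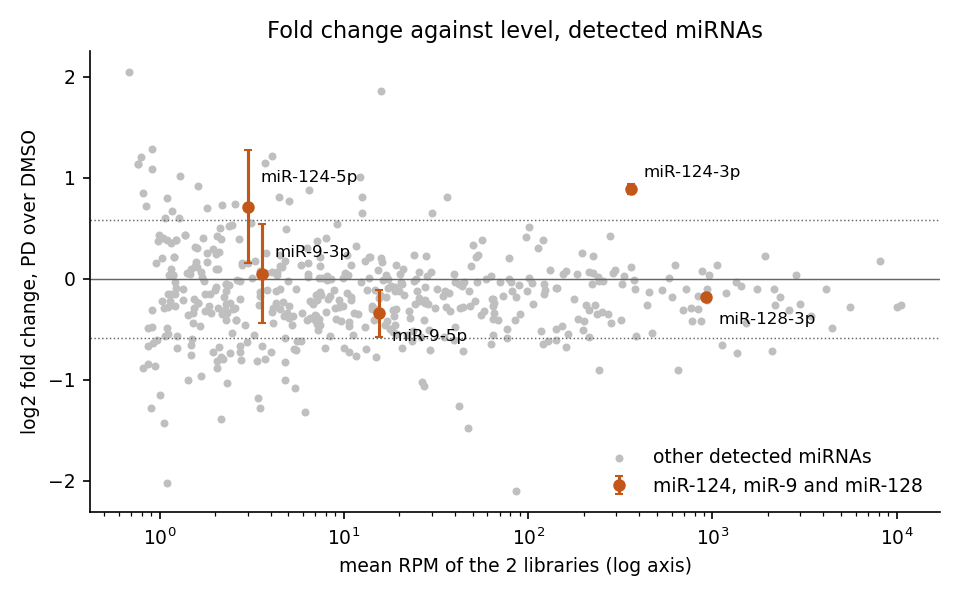
Log2 fold change (PD over DMSO) against the mean RPM of both libraries (log axis) for the detected miRNAs (grey), with the 5 detected arms of miR-124, miR-9 and miR-128 in colour, bars for exact 95% intervals of the reads and dotted lines at 1.5-fold either way. miR-124-3p, at 1.85-fold, stands above every grey point that reached 100 RPM in a library, while miR-128-3p, at 0.885, lies in the middle of the cloud.

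The denominator drops out when the fold changes of 2 miRNAs are set against each other, so 3 such pairs were compared by Fisher's exact test. The fold change of miR-124-3p was 2.09 times that of miR-128-3p (95% interval 2.01 to 2.17, adjusted p = 2.54e-294) and 2.35 times that of miR-9-5p (2.00 to 2.76, adjusted p = 1.64e-24 in the same exact test). miR-9-5p and miR-128-3p could not be told apart, with a ratio of 0.890 and an interval of 0.759 to 1.04 (adjusted p = 0.15 in the exact test). All 3 ratios count perfect matches only. With tags that carry added bases at the 3′ end, fold changes per clean read were 1.55 (miR-124-3p), 0.886 (miR-128-3p) and 0.812 (miR-9-5p). Ratios of these were not tested. Per miRNA-matching read, miR-124-3p was 2.12-fold and miR-124-5p 1.87-fold higher in the PD library, and per clean read of 20 to 24 nt these values were 2.24 and 1.98.

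**Figure D3:**
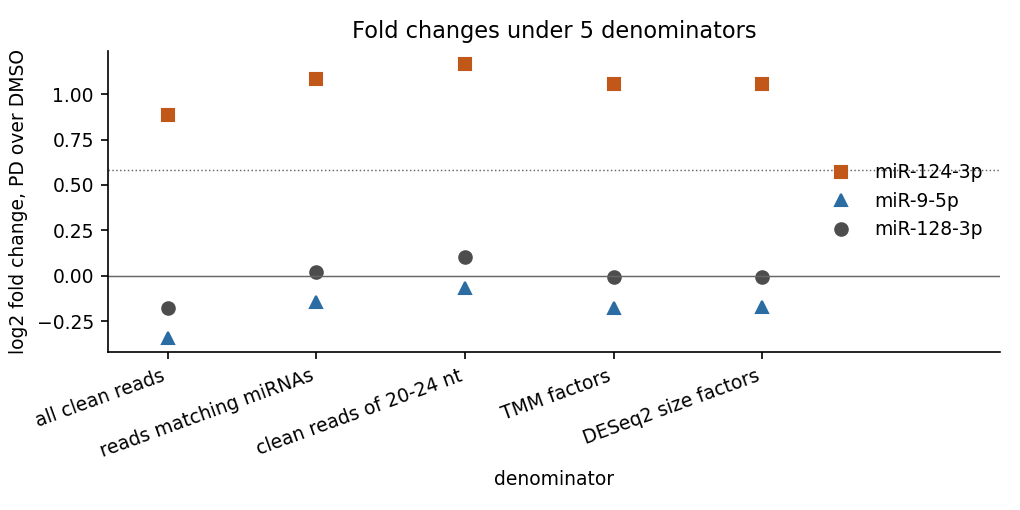
Log2 fold change (PD over DMSO) of the main arm of each family under 5 denominators, with lines at no change and at 1.5-fold (dotted). miR-124-3p stays between 1.85-fold and 2.24-fold, while miR-128-3p moves from 0.885 to 1.07 and crosses the line of no change.

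The reads came from short sets of tags, and most could not be assigned to a single copy. All 63 tags lay on a mature arm, with 0 reads in the loops or flanks, and 0 of them matched a hairpin of another miRNA. None of the 24 tags of miR-124 and the 19 tags of miR-9 matched 1 copy alone, so the reads do not show which copies of miR-124 were higher in the PD library. For miR-128, 10 tags matched 1 copy only. The base that follows the mature 3p arm is U in Mir128-1 and C in Mir128-2, and the tags that hold it are shown to make this visible.
Mir128-1, 1 base longer: ucacagugaaccggucucuuuu
Mir128-2, 1 base longer: ucacagugaaccggucucuuuc
The first had 1265 reads in the control and 1305 in the PD library (fold change 0.929, 0.860 to 1.00), and the second had 8 and 4 reads. In the first tag, a U from the hairpin and a U added after cutting cannot be told apart, and tags with an added A, which neither hairpin encodes, had 910 and 934 reads. These counts therefore do not give the shares of the copies. Apart from such extended tags, reads that matched Mir128-1 alone numbered 16 and 8 and those of Mir128-2 alone 0 and 1.

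The tags of miR-124-3p did not rise evenly. The most frequent one, of 22 nt, went from 3945 to 8391 reads, a fold change of 1.92 (1.84 to 1.99). The tag 1 nt shorter at the 3′ end went from 166 to 705 reads, a fold change of 3.83 (3.23 to 4.56), and its share of the arm grew from 3.45% to 7.13%. In contrast, the 18 nt tag had 206 and 188 reads (fold change 0.822, 0.671 to 1.01). The 23 nt tag that starts 1 base earlier had 200 and 221 reads (0.996, 0.818 to 1.21). Each of these 4 differed from the rest of the arm in Fisher's exact test (adjusted p = 2.72e-05, 3.54e-19, 6.78e-15 and 1.15e-09, over 18 tags of 3 arms). So did the 19 nt tag, with 164 and 211 reads (fold change 1.16, 0.941 to 1.43, adjusted p = 2.72e-05 in the same exact test). Tags that matched miR-124-3p except for 1 or 2 added bases at the 3′ end were left out of these counts, and with them the fold change of miR-124-3p was 1.55 (1.51 to 1.59).

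**Figure D4:**
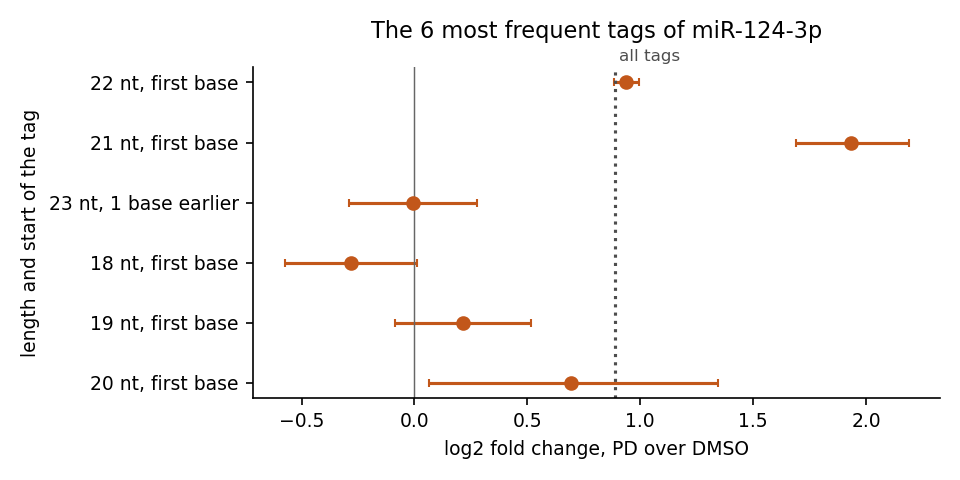
Log2 fold change (PD over DMSO) with exact 95% intervals of the reads for the 6 most frequent tags of miR-124-3p, named by their length and by whether they start at the first base of the mature miRNA or 1 base earlier, and a dotted line at the fold change of all its tags. The 21 nt tag lies to the right of the line at 3.83-fold, and the tags of 18 nt and of 23 nt with an earlier start lie near or below no change.

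The first base of a tag sets its seed, and of the 5 detected arms the test found a difference between the libraries for miR-124-3p. Of its reads, 93.9% (93.2 to 94.5) in the control and 96.7% (96.3 to 97.0) in the PD library started at the first base of the mature miRNA (Fisher's exact test, adjusted p = 4.17e-14 over 5 arms). Starts 1 base earlier made up 5.82% (5.19 to 6.51) and 2.98% (2.67 to 3.34) of its reads. miR-128-3p started at the first base in 99.8% of reads in both libraries, and miR-9-5p in 99.7% and 98.3%. miR-9-3p was the most uneven arm, with 28.4% (19.0 to 40.1) and 33.8% (24.2 to 44.9) of its reads starting 1 base earlier, at the RefSeq first base, and the difference between the libraries was not detectable at this depth (adjusted p = 0.77 in the exact test).

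In length, miR-128-3p was almost uniform, with 89.6% and 89.8% of its reads at 21 nt. Among its rarer tags, the one of 19 nt went from 106 to 66 reads, a fold change of 0.561 (0.406 to 0.770). It also differed from the rest of the arm (Fisher's exact test, adjusted p = 0.0092). For miR-9-5p, the full tag of 23 nt had 160 and 179 reads and made up 48.8% of the arm in the control and 62.4% in the PD library (Fisher's exact test against the rest of the arm, adjusted p = 0.0026). The miR-9-5p tag 1 nt shorter fell from 102 to 62 reads, a fold change of 0.548 (0.393 to 0.758, adjusted p = 0.0183 in the exact test against the rest of the arm). Per clean read, the lower miR-9-5p level in the PD library therefore lay in shorter tags, while the full tag was at 1.01 (0.810 to 1.26). Among the shorter ones, the 21 nt tag was not lower, with 10 and 12 reads (fold change 1.08, 0.428 to 2.79). The mean tag length, which was not tested, was 21.69 nt and 21.78 nt for miR-124-3p, 21.89 nt and 22.21 nt for miR-9-5p, and 21.03 nt and 21.05 nt for miR-128-3p.

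**Figure D5:**
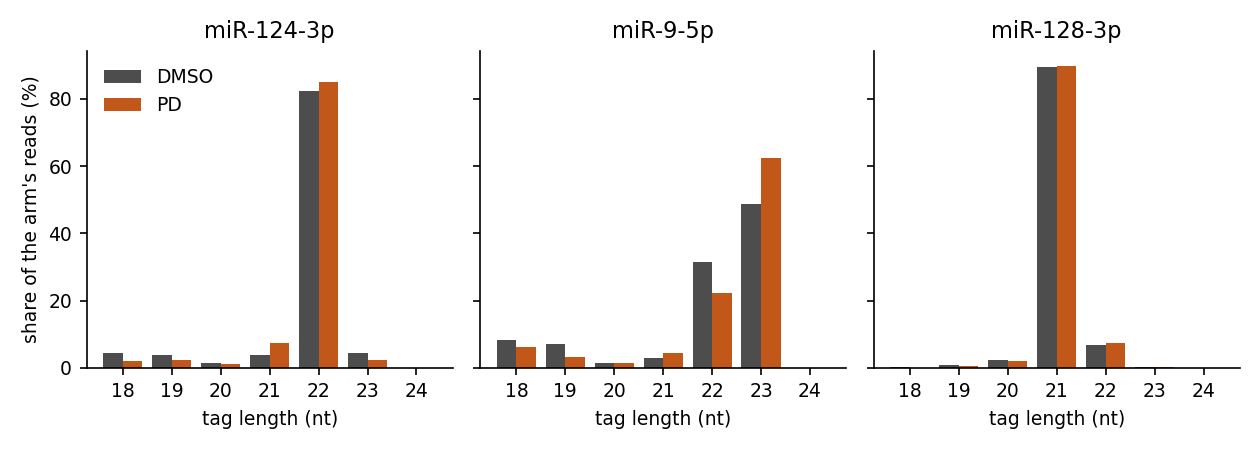
Share of the reads of each main arm (%) by tag length in nt, for the DMSO (dark) and PD (orange) libraries. The 23 nt tag of miR-9-5p goes from 48.8% to 62.4%, whereas the 21 nt reads of miR-128-3p stay near 90% in both libraries, at 89.6% and 89.8%.

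Other miRNAs enriched in the brain were examined as a list of 20 hairpins (miR-7, miR-129, miR-132, miR-137, miR-138, miR-153, miR-212, miR-218, miR-219, miR-338, miR-383 and miR-488), of which 13 arms were detected. None of the 13 was raised 1.5-fold, and 2 were lowered, against 6.01% and 13.8% of all detected miRNAs. Their median fold change was 0.924, beside 0.888 for all. The highest of them, miR-7-1-5p/miR-7-2-5p, had 2758 and 2872 reads (146.2 and 137.1 RPM), a fold change of 0.938. The lowered arms were miR-129-1-3p, with 66 and 42 reads (fold change 0.573, 0.380 to 0.857, adjusted p = 0.0138 in the exact binomial test), and miR-212-5p, with 34 and 24 reads (0.636, 0.361 to 1.10, adjusted p = 0.17 in that exact test). At an adjusted p under 0.05, 0 arms of the list were higher and 4 lower in the PD library, beside 9.22% and 36.1% of all detected miRNAs. miR-137, miR-153, miR-338 and miR-488, also known from neurons or glia, had at most 4 reads in either library on each arm.

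A seed equal to that of a member was found for miR-6539-5p, whose most frequent tag had the seed of miR-128-3p. It had 310 and 341 reads (fold change 0.991, 0.847 to 1.16). No other miRNA with reads had the seed of a miR-124 or miR-9 arm, when the seeds of the most frequent tags were compared. The RefSeq seed of miR-9-3p, shifted by 1 base, was not compared. By the distance between log2 RPM in the 2 libraries, the miRNAs nearest to miR-128-3p were miR-363-5p (0.019) and miR-744-5p (0.043), and those nearest to miR-9-5p were miR-466f-3-3p (0.074) and miR-1968-5p (0.11). The nearest to miR-124-3p, miR-295-5p (0.55) and miR-341-3p (0.57), were farther from it, with fold changes of 1.09 and 1.34.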

How the data were processed

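Small RNA of 18 to 30 nt was gel purified, ligated to adapters and sequenced on an Illumina HiSeq, according to the study's methods, whereas the labels name a kit for RNA libraries. The authors removed low-quality, adapter, contaminating and short reads, collapsed identical reads and deposited, for each tag, its raw count of clean reads, neither aligned nor normalized. The deposited counts summed to the totals on the last line of each file. The submitters' processing notes name mm9, but the files hold no coordinates. The trimming tool is not given in the sources used here.

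Tags of 18 to 44 nt were matched to the GENCODE M21 hairpins (GRCm38) with Python 3.11.15, numpy 2.4.6 and pandas 2.3.3. Arms were separated with ViennaRNA 2.7.2, and the most frequent tag of an arm over both libraries was taken as its mature miRNA. An overlap of 16 nt or more assigned a tag to it, and copies with 1 mature sequence were counted once. RPM, fold changes with exact Clopper-Pearson intervals, 2-sided exact binomial tests of the reads and Fisher's exact tests (odds ratios with Woolf intervals) were computed with SciPy 1.17.1, and p-values were adjusted by Benjamini-Hochberg across the 499 detected miRNAs or the stated tests. Shares have Wilson intervals. Intervals, floors and tests cover counting error only, and PCR reads without molecular identifiers are not independent molecules. The tests of edgeR and DESeq2 that estimate the spread need replicates and could not be fitted. The exact test of edgeR 4.0.16 (R 4.3.3) with an assumed BCV, TMM factors, and size factors of DESeq2 1.42.0 were alternatives, beside other denominators, tag definitions and filters. The matching, the counting and the exact binomial test were tried on simulated tags. These held counting error only, with no variation between cultures, no added bases and no earlier starts.

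The members, lists and tests were chosen with earlier results of these data known. The miRNAs named were every arm of the 8 hairpins, the marker lists, the brain list members changed 1.5-fold (others named in it were chosen after their values were seen), miRNAs that share a seed, and the 2 nearest in level (0.01 RPM added before the logarithm). The split by single tags was also chosen after the values were seen. Mature sequences are from RefSeq, in which 5 of the 7 arms were matched.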

Additional observations from a re-analysis of the deposited data

Results flagged for a closer look

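Tags of miR-124-3p that end in untemplated U, and thus match no hairpin over their whole length, lie outside the counts compared above. They had 3347 control reads and 4316 PD reads, above the limit of 3 reads. The tags counted here follow the hairpin from the first base of the miRNA to within 2 nt before or 1 nt after its end and then carry 1 or 2 U. Of the perfect matches and these tags together, the tags with added U made up 41.0% in the control (Wilson 95% interval 39.9 to 42.1) and 30.4% in the PD library (29.6 to 31.2). The share differed between the libraries in Fisher's exact test (adjusted p = 8.30e-57 over 9 arm and tail combinations, chosen after the data were seen). Each other kind of tail was likewise set against the perfect matches alone, so these shares have different bases. On that basis, tags with added A had 136 and 147 reads (2.75% and 1.47%), and those with other added bases made up 2.03% and 1.23%.

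The tailed tags did not change as one group. Those with 1 U in place of the last base went from 1496 to 2725 reads, a fold change of 1.64 (1.54 to 1.75), and those with 1 U after the complete miRNA went from 923 to 782, a fold change of 0.763 (0.693 to 0.841). Of perfect matches and U-tailed tags together, U tails made up 3.53% and 4.97% for miR-9-5p (12 and 15 reads). For miR-9-3p these shares were 11.8% and 11.5% (9 and 10 reads). On miR-128-3p an added U cannot be told apart from the Mir128-1 hairpin. Added A made up 5.97% and 6.06% of its perfect matches and A-tailed tags together, with 1170 and 1167 reads.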

How the results depend on the processing

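The fold change of miR-124-3p kept its direction and its call under 11 of the 12 alternatives made from the perfect matches, from 1.85 to 2.24, and with the tailed tags added, an alternative chosen after seeing the data, it was 1.55. It lost the call at a BCV of 0.2 (fold change 1.85, adjusted p = 0.80 in the exact test of edgeR). miR-124-5p lost its call without the filter on low counts (adjusted p = 0.060) and at a BCV of 0.1 or 0.2 (adjusted p = 0.24 and 1 in the exact test of edgeR). miR-9-5p lost its call per miRNA-matching read (0.904), per clean read of 20 to 24 nt (0.955), with TMM factors (0.886), size factors of DESeq2 (0.888), only tags of 20 nt or more (0.843) and a BCV of 0.2 or 0.1 (0.788), and it reversed with only tags identical to the mature miRNA (1.01). miR-128-3p lost its call with TMM factors (0.995), size factors of DESeq2 (0.997) and a BCV of 0.2 or 0.1 (0.885), and it reversed per miRNA-matching read (1.02) and per clean read of 20 to 24 nt (1.07, called higher with an adjusted p of 1.70e-10). The number of arms raised 1.5-fold was 2, but 1 with at least 10 RPM required, 3 with only identical tags (miR-9-3p at 1.52) and 3 without the filter on low counts (miR-128-2-5p, 0 and 1 read). An assumed BCV leaves the fold changes as they were. With a call in the exact test of edgeR also required, the number raised was 1 at a BCV of 0.1 and 0 at 0.2. The number lowered was 0, but 1 without the filter on low counts (miR-128-1-5p, 11 and 6 reads). The ratio of the fold changes of miR-9-5p and miR-128-3p reversed with only identical tags (1.14), as did the 3p over 5p ratio of miR-124 (0.955). miR-9-3p reversed with only tags that start at the first base (0.957), and the odds of such a start for miR-128-3p reversed with only tags of 20 nt or more (0.801). Of the brain list, 1 arm was raised per clean read of 20 to 24 nt. Lowered were 1 per miRNA-matching read and 0 per clean read of 20 to 24 nt or with at least 10 RPM. Over all detected miRNAs, TMM factors or size factors of DESeq2 gave 43 raised and 34 lowered. In all, of 121 values under an alternative, 15 lost a call and 7 changed direction. The cause was not tested, except that stricter filters and identical tags leave fewer miRNAs or reads, and no filter leaves more miRNAs. A change of denominator multiplies all fold changes by the same factor. No paired analysis was possible because each treatment had 1 library, and for the same reason no replicate could be left out.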
